A study of Mus musculus with 4 samples.

Results

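Among the mesenchymal cells of the fetal ventricles, a set of 1395 barcodes carried the genes of the endocardial cushions without more than 1 UMI of *Col9a1* and *Col9a3*, which encode chains of a cartilage collagen, or of *Rtn1* and *Car3*. They are called marker-low cushion mesenchyme here. They were chosen by measured values: barcodes with 1000 to 7000 genes and at most 10% mitochondrial UMIs were kept, those with 0.5% or more of UMIs from *Tnnt2*, *Actc1*, *Tnnc1* and *Ttn*, more than 1 UMI of *Pecam1*, *Cdh5*, *Emcn* and *Egfl7*, or 0.3% or more from *Eln* and *Fbln5* were set aside, and *Sox9*, *Lum*, *Cthrc1* and *Papss2* had to sum to at least 3 UMIs and to more than *Tcf21*, *Pid1*, *Hpse2* and *Lsp1*. Of 45551 deposited barcodes 35351 were kept, so the 1395 made up 3.95% of the kept barcodes and 29.9% of the 4672 that met the cushion criteria.

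The study compared E14.5 mouse ventricles (C57BL/6) of control embryos, *Tie2*Cre;*Ets1* fl/+, with those of *Ets1* eKO embryos, *Tie2*Cre;*Ets1* fl/fl, by droplet single-cell RNA sequencing. Both groups carried the *Tie2*Cre transgene, which is active in endothelium and endocardium and therefore also marks cells descended from them, and control cells kept 1 undeleted allele where Cre acted. Each group had 2 libraries, each pooled from 3 ventricles, and embryos of both sexes were used in the study without genotyping for sex. A library is the replicate, and no label assigned a cell to an embryo.

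Cushion mesenchyme forms when endocardial cells of the atrioventricular canal and outflow tract lose their junctions and move into the cardiac jelly, and cells of the neural crest add to it in the outflow tract. The cells divide, deposit hyaluronan, proteoglycans and collagens, and are remodelled into the valve leaflets and the membranous septum. BMP, TGF-beta, Notch and Wnt signals and factors such as Sox9, Twist1 and Tbx20 are known to act in these steps. Because part of this mesenchyme descends from Tie2-positive endocardium, *Ets1* can be deleted in it, although the cells themselves no longer use the *Tie2* promoter.

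The libraries differed in depth. Median UMIs per marker-low cell were 5710 and 5369 in the controls and 4804 and 3139.5 in eKO replicates 1 and 2, so that eKO replicate 2 stood apart as the shallowest. The summed UMIs of the cells were 2024036, 2194839, 1456392 and 1652693. In control replicate 1, 237 cells had UMIs of Y-linked genes without *Xist* and 0 had *Xist*. In eKO replicate 2, 372 cells had *Xist* without a Y-linked UMI, 2 had both and 0 had Y-linked UMIs alone, whereas control replicate 2 and eKO replicate 1 held cells of both kinds. These had 192 and 133 cells with *Xist* alone and 109 and 80 with Y-linked UMIs alone. Sex was thus unevenly spread over the groups and was not separated from genotype in the main comparison. Between 19 and 47 barcodes were shared by any pair of libraries. Levels below are given in CPM, the usual counts-per-million-UMIs scale, with the total taken over all cells that a class had in a library.

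Marker-low cells numbered 315 and 359 in control libraries, and 267 and 454 were found in eKO. At the edge of the rule, 138 of them had a cushion sum of exactly 3 UMIs, while 111 barcodes stayed outside with a sum of 2. Likewise 570 members had 1 UMI of *Col9a1* or *Col9a3* and 696 cushion barcodes with 2 were outside. The class is therefore bounded by 1 UMI and not by the absence of the transcript.

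The 4 genes taken as markers of this mesenchyme were present in every library. *Lum*, which encodes the small proteoglycan lumican, was at 484 and 516 CPM in control and 542 and 765 CPM in eKO libraries. *Cthrc1*, a secreted protein of the collagen-rich matrix, was at 360, 376, 338 and 491 CPM in the same order. These 2 genes were used by the rule, so their levels are a description. *Twist1*, a transcription factor of mesenchymal cells, was at 314, 268, 297 and 457 CPM. *Postn*, which encodes the valve matrix protein periostin, was at 1258, 1045, 1258 and 1124 CPM. The means of *Twist1* and *Postn* were 334 ± 84.3 and 1171 ± 105 CPM (SD, n = 4 libraries), against 74.9 ± 13.3 and 482 ± 75.9 CPM in *Tcf21*-type fibroblasts, the barcodes in which the *Tcf21* gene sum was larger. Of the 4 markers, *Twist1* and *Postn* alone bear on the label, since the rule had not used them. Levels between classes, which were chosen from the same counts, were not tested.

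**Figure D1:**
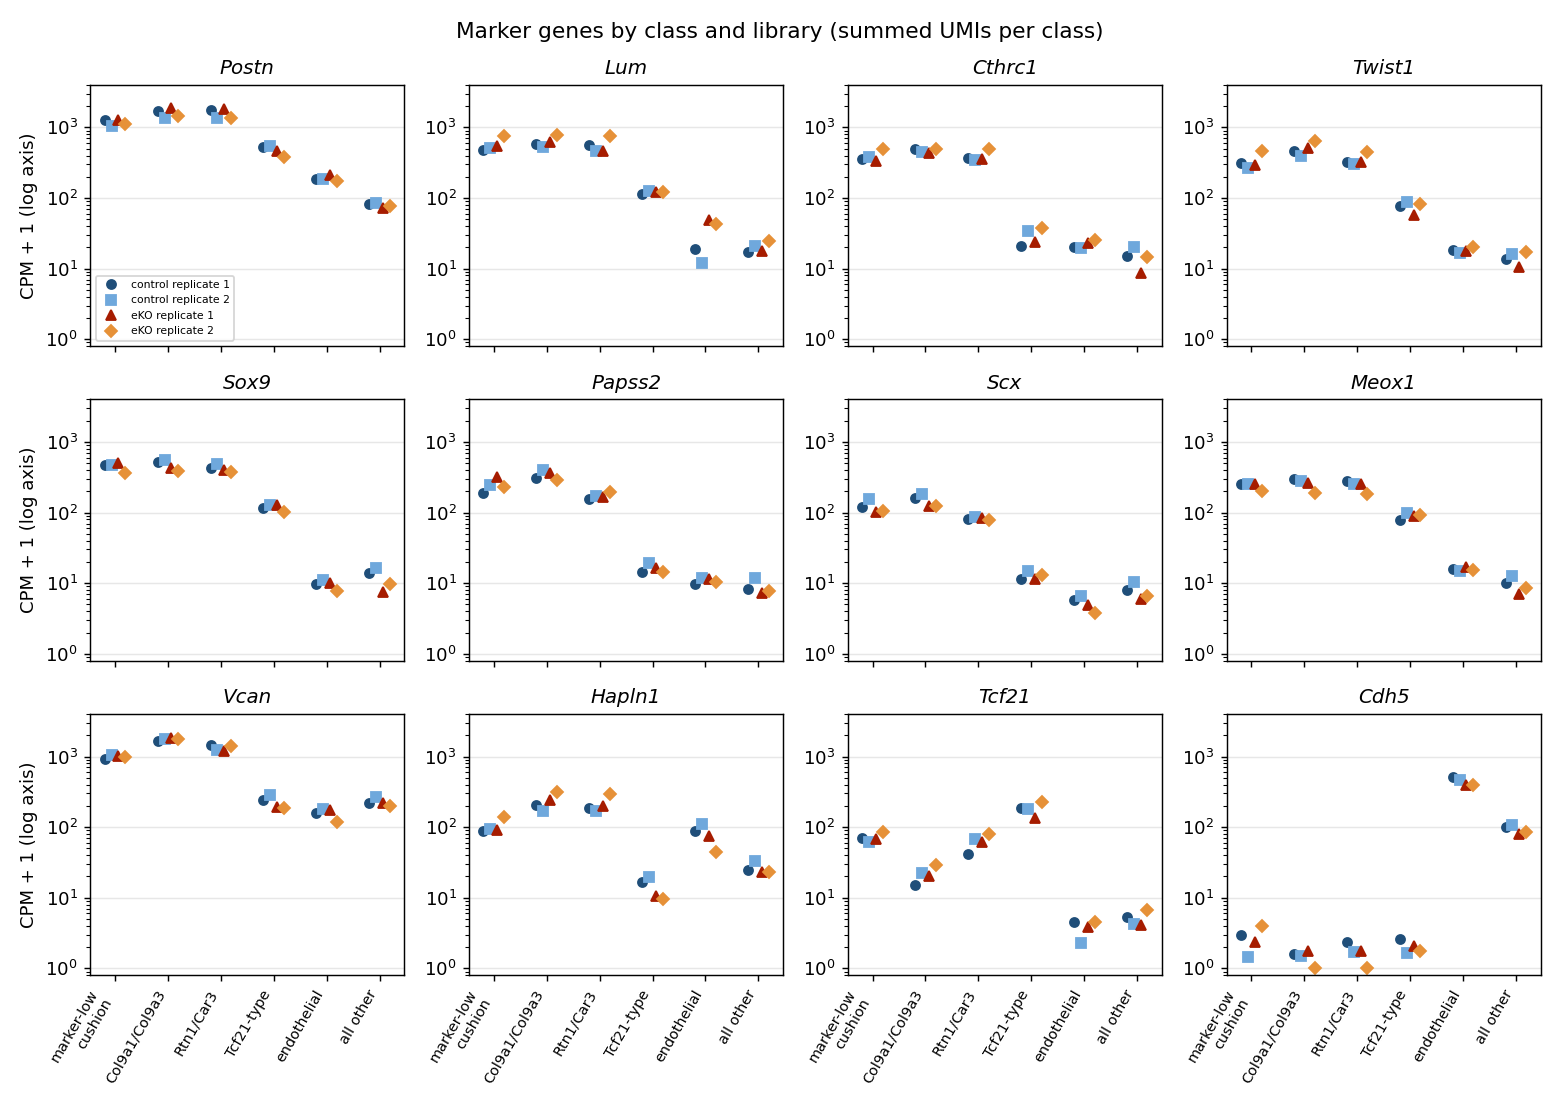
Level of 12 genes in 6 classes, as CPM plus 1 on a log axis, with 1 point per library (2 control, 2 eKO); the last class holds all other kept barcodes, endothelial ones included. *Twist1* and *Postn* lay higher in marker-low cushion mesenchyme (means 334 and 1171 CPM) than in *Tcf21*-type cells (74.9 and 482 CPM), and *Hapln1* and *Vcan* lay below their level in cells with *Col9a1* or *Col9a3*.

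Outside the rule genes, those with the largest ratio over all other kept barcodes in each library were led by *Shisa2*, *Abi3bp*, *Ctnna2*, *Grm7*, *Sfrp2*, *Egfr* and *Scx*. These genes were shared with the other cushion classes. *Abi3bp*, *Grm7* and *Scx* averaged 155, 296 and 147 CPM in cells with *Col9a1* or *Col9a3*, above their 127, 261 and 121 CPM in marker-low cells, while *Sfrp2* averaged 283 against 433 CPM and *Shisa2* 74.5 against 91.3 CPM. The lowest of the 4 library ratios was 7.22 for *Shisa2*, 6.62 for *Abi3bp*, which encodes a matrix protein, and 6.44 for *Ctnna2*, an alpha-catenin. *Ctnna2* averaged 1123 ± 212 CPM (SD, n = 4). *Scx* and *Meox1*, transcription factors of tendon and of paraxial mesoderm, averaged 121 ± 25.6 and 240 ± 24.2 CPM and had lowest ratios of 5.83 and 5.51. *Dkk3*, *Aspn*, *Eya4*, *Dnm3os*, *Negr1*, *March1* and *Tgfbi* completed the 15 leading genes. Against *Tcf21*-type cells the leading genes were *Crabp1*, a retinoic acid binding protein, with 57.2 against 0.814 CPM, *Kirrel3* with 286 against 13.7 CPM, *Msx1* with 57.1 against 1.69 CPM and *Rspo3* with 208 against 10.7 CPM. *Lef1* and *Dkk3*, which act in or on Wnt signalling, followed with 103 and 152 CPM against 5.42 and 12.3 CPM.

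Ratios between the 3 classes of cushion mesenchyme were smaller. Cells with *Col9a1* or *Col9a3* had more *Vcan*, the versican core protein, with 1753 ± 62.9 CPM against 997 ± 46.1 CPM, more *Hapln1*, which links versican to hyaluronan, with 233 against 102 CPM, and more *Col2a1*, with 101 against 43.9 CPM. *Wnt16*, *Cdh6* and *Sall3* were lower in marker-low cells as well, with lowest library ratios of 2.01, 2.16 and 2.07. In the other direction 6 of the 10 leading genes were hemoglobins, with *Hba-x* first at a lowest ratio of 5.56. Of the others, *Gucy1a1*, a subunit of the nitric oxide receptor, had 87.4 against 11.2 CPM and *Akap12*, a signalling scaffold, 127 against 36.5 CPM. *Tcf21*, which is a rule gene, stood at 68.2, 61.1, 66.6 and 84.7 CPM in marker-low cells. Against cells with *Rtn1* or *Car3*, the genes higher in marker-low cells were led by *Nlgn1*, *Aspn* and *Grik2* with lowest ratios of 2.29, 2.25 and 1.88, and those lower by *Ptprb* and *Hapln1* with 2.01 and 1.82. The median UMIs of cells with these collagens were 6728.5, 6917, 6581 and 4323, each above those of marker-low cells in the same library. The part of depth in these levels was not tested.

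Genes of other cell types were summed as whole lists. The endothelial, cardiomyocyte, chondrogenic, smooth muscle and *Tcf21*-type lists hold genes of the rule. Their sums were therefore partly set by the choice of cells and are a description. The 12 endothelial genes summed to 155 and 158 CPM in control and 164 and 179 CPM in eKO libraries, against 6222 to 7311 CPM in endothelial barcodes. *Cdh5*, which the rule limited, had 4, 1, 2 and 5 UMIs. Neural crest and Schwann cell genes summed to 30.9 to 58.1 CPM, and 2 of the 9 had no UMI. The 8 immune genes summed to 75.6 and 87.0 CPM in the controls and to 9.61 and 50.2 CPM in eKO. Between 2 and 3 barcodes per library had at least 2 immune UMIs. The 7 erythroid genes were uneven, with 18774 and 5843 CPM in control and 10004 and 21208 CPM in eKO libraries. In 4, 2, 3 and 7 cells at least 1% of UMIs were hemoglobin, while the median cell had at most 0.0317%. The 9 epicardial genes summed to 88.3 to 139 CPM and the 13 cardiomyocyte genes to 1200 to 2394 CPM, against 38309 to 42580 CPM in the barcodes outside the 4 mesenchymal classes. Smooth muscle and pericyte genes summed to 937 to 1291 CPM and the 9 chondrogenic genes to 176 to 295 CPM. The 7 genes of *Tcf21*-type fibroblasts summed to 267 to 384 CPM, against 1382 to 1602 CPM in that class.

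Within the class, 20 genes were among the 50 most variable between cells in each of the 4 libraries. Besides hemoglobins, *Malat1* and *Tmsb4x* they were *Ctnna2*, *Mgp*, *Erbb4*, *Ptn*, *Cdkn1c*, *Apoe*, *Kirrel3*, *Fos*, *Pcdh15*, *Acta2*, *Hist1h1b*, *Adamts19* and *Kcnq5*. Variance and detection were taken after thinning each cell to 2000 UMIs, which 312, 355, 260 and 412 cells reached. *Ctnna2* had a UMI in 159, 197, 140 and 204 of these cells, and its variance was 4.96 to 8.14 times its mean. *Pcdh15*, a cadherin of sensory cells, was detected in 24, 12, 8 and 20 cells. *Cdkn1c*, an inhibitor of cell division, was detected in 88, 75, 71 and 143 cells. The marker-low cells were therefore not uniform for the adhesion genes *Ctnna2*, *Kirrel3* and *Pcdh15* or for the contractile gene *Acta2*.

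The first question was whether the deletion went with a loss or gain of these cells. Their share of kept barcodes was 3.41% and 5.75% in the controls and 3.47% and 3.72% in eKO. The groups overlapped, with means of 4.58 ± 1.65% and 3.60 ± 0.177% (SD, n = 2) and an exact two-sided permutation p of 1. Among cushion mesenchyme barcodes they made up 26.7% and 27.0% of the controls and 27.0% and 38.7% of eKO. Only eKO replicate 2, the shallowest library, was high, and the exact two-sided permutation p was 0.667 (n = 2 per group). When each barcode was first thinned to 5000 UMIs and shallower ones were left out, the 4 shares were 32.6%, 30.6%, 29.9% and 30.3%, from 285, 288, 190 and 88 marker-low cells. At equal depth eKO replicate 2 lay within the range of the others for this share. The share of kept barcodes, in contrast, became 3.48% and 5.29% in the controls and 2.86% and 1.10% in eKO after the same thinning, with a difference of -2.41 percentage points (exact two-sided permutation p of 0.3333, n = 2 per group). This share cannot be told apart from depth: in eKO replicate 2 the median marker-low cell had 3139.5 UMIs, under the limit of 5000, and the median barcode outside the 4 mesenchymal classes 7205, so that marker-low cells went from 454 to 88 while kept barcodes went from 12194 to 8035. The smallest p that 2 libraries against 2 can give is 0.3333, so these shares could not pass the threshold. The exact 95% binomial intervals, which cover counting error only, were 24.2 to 29.3%, 24.7 to 29.5%, 24.2 to 29.9% and 35.9 to 41.6% before thinning, and 25.1 to 36.0% in eKO replicate 2 after it.

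Division was read from 47 genes of S phase, G2 and mitosis. After thinning to 2000 UMIs, at least 2 such UMIs were found in 45.5% and 41.7% of marker-low cells of the controls and in 40.8% and 51.5% of eKO. The groups overlapped (exact two-sided permutation p of 1, n = 2 per group), and 3, 4, 7 and 42 cells were too shallow to enter. All UMIs gave 77.5%, 73.8%, 73.0% and 65.4%. With at least 4 such UMIs in place of 2 the shares were 18.9%, 20.3%, 13.8% and 27.7%, so the level depends on the limit. The difference between the group means was 2.51 percentage points at 2000 UMIs and -1.38 at 1000 UMIs, so its direction was not settled. At 2000 UMIs the shares in cells with *Col9a1* or *Col9a3* were 44.3%, 43.8%, 45.7% and 56.7%. In cells with *Rtn1* or *Car3* they were 54.2%, 54.9%, 52.1% and 60.9%, and in *Tcf21*-type cells 70.3%, 68.5%, 69.6% and 74.8%. The highest share was that of eKO replicate 2 in each class.

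**Figure D2:**
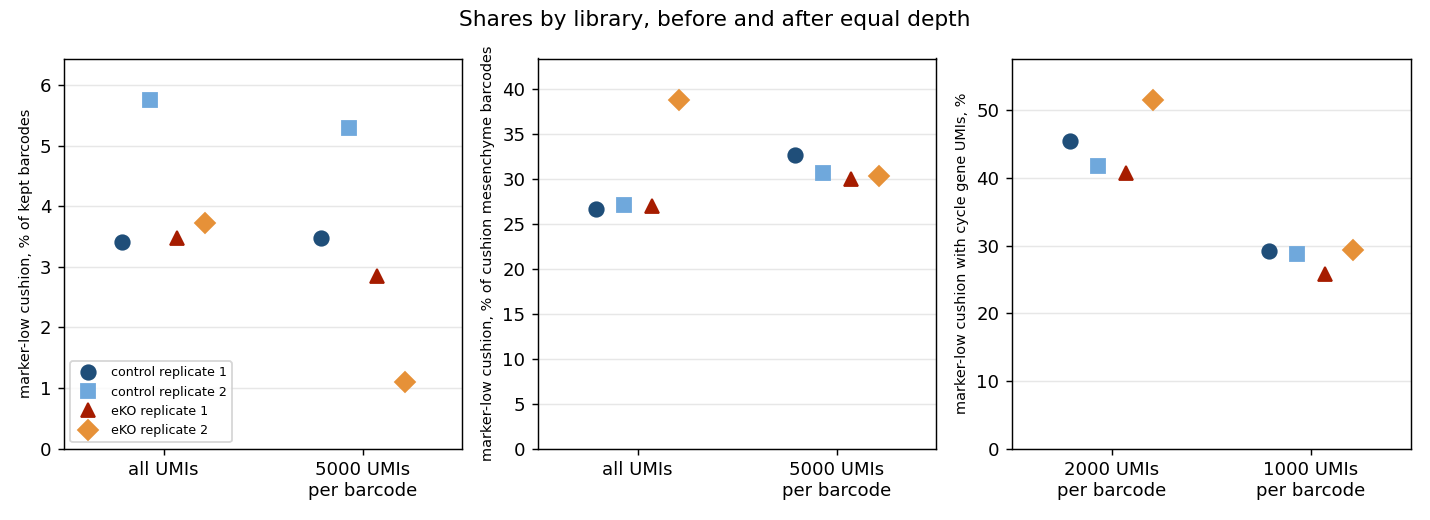
Share of marker-low cushion mesenchyme among kept barcodes (left) and among cushion mesenchyme barcodes (middle), with all UMIs and after thinning to 5000 UMIs, and share of marker-low cells with at least 2 UMIs of cycle genes after thinning to 2000 or 1000 UMIs (right), in percent with 1 point per library. In the middle panel eKO replicate 2 falls from 38.7% to 30.3%, within the range of the other libraries, while in the left panel it falls from 3.72% to 1.10%.

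*Ets1* itself was low in marker-low cells, as in the rest of the mesenchyme. It was at 77.6 and 66.1 CPM in the controls, from 157 and 145 UMIs, and at 47.4 and 40.5 CPM in eKO, from 69 and 67 UMIs. Both eKO libraries lay below both controls. The log2 change was -0.65 ± 0.21 (SE), with an adjusted p of 0.453 by edgeR's quasi-likelihood test, so it did not pass across all genes. In endothelial barcodes *Ets1* was at 306 and 273 against 137 and 102 CPM, with a log2 change of -1.21 ± 0.15. In cushion cells with *Col9a1* or *Col9a3* it was at 89.0 and 78.4 against 42.9 and 38.5 CPM, with -0.94 ± 0.15 (adjusted p = 0.0383). The 3' tags count transcripts of the locus and do not show whether the floxed part is present. The genotypes of single cells are thus not known, and cells of an origin without Tie2 cannot be told apart from the rest.

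Across the transcriptome, marker-low cells of *Ets1* eKO differed from controls at few genes. Of 11041 genes tested outside the rule genes, 10 passed an adjusted p of 0.05 (edgeR), 0.0906% of those tested, with 4 higher (0.0362%) and 6 lower (0.0543%) in eKO. Without adjustment 292 genes (2.64%) were higher and 408 (3.7%) lower at p under 0.05, and 49.1% of all genes tested had a negative log2 change. The 6 that fell were *Cntn4*, *Prr16*, *Grik2*, *Syt1*, *Abi3bp* and *Ntrk3*, and the 4 that rose were *Thsd7b*, *Gabrb1*, *Mgst1* and *Gm3331*. For all 10 the groups did not overlap, which 11.8% of the genes tested showed upward and 23.4% downward.

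Of the genes that fell, *Cntn4*, at chr6:105677660-106699310 (mm10, plus strand), encodes contactin-4, a cell adhesion protein anchored to the outer face of the cell membrane. It was at 71.1 and 88.4 CPM in control and 17.2 and 15.7 CPM in eKO libraries, a log2 change of -2.21 ± 0.24 (SE, adjusted p = 0.000959). *Syt1*, the calcium sensor of vesicle release (chr10:108497650-109010982, minus strand), was at 28.7 and 49.7 against 6.87 and 9.68 CPM, a log2 change of -2.16 ± 0.34 (adjusted p = 0.0155). *Ntrk3*, the receptor of neurotrophin-3 (chr7:78175959-78738012, minus strand), was at 27.2 and 49.2 against 10.99 and 9.08 CPM, a log2 change of -1.87 ± 0.33 (adjusted p = 0.0466). *Grik2*, a kainate-type glutamate receptor subunit (chr10:49094833-49788766, minus strand), was at 66.2 and 93.9 against 30.2 and 21.2 CPM, a log2 change of -1.58 ± 0.24 (adjusted p = 0.0155). In each of these the controls, at their higher level, spread more widely in CPM than the eKO libraries, and the groups did not overlap.

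The other genes that fell were *Prr16* and *Abi3bp*. *Prr16*, which is known to raise translation and cell size (chr18:51117733-51420044, plus strand), was at 70.2 and 87.0 CPM in control and 22.7 and 19.4 CPM in eKO libraries, a log2 change of -1.84 ± 0.23 (adjusted p = 0.00332). *Abi3bp*, the matrix protein named above among the leading genes of the class (chr16:56477878-56690135, plus strand), was at 207 and 171 against 87.9 and 44.2 CPM, a log2 change of -1.47 ± 0.25 (adjusted p = 0.0319). *Abi3bp* was the only gene both among the 15 leading genes and past the threshold in the eKO comparison.

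Of the genes that rose, *Thsd7b* encodes a membrane protein with thrombospondin repeats (chr1:129273302-130219278, plus strand). It was at 84.5 and 107 CPM in control and 233 and 203 CPM in eKO libraries, a log2 change of 1.25 ± 0.18 (adjusted p = 0.0145). *Gabrb1*, a GABA type A receptor subunit (chr5:71658113-72149037, plus strand), was at 29.6 and 29.2 against 80.3 and 66.6 CPM, a log2 change of 1.38 ± 0.21 (adjusted p = 0.0155). *Mgst1*, a microsomal glutathione transferase (chr6:138140316-138156755, plus strand), was at 33.6 and 35.5 against 72.8 and 94.4 CPM, a log2 change of 1.34 ± 0.21 (adjusted p = 0.0155).

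*Gm3331* is an annotated long noncoding RNA on the same strand as *Ets1*, at chr9:32813734-32834104 in GENCODE M21, 55913 bases after the end of *Ets1* (chr9:32636221-32757820). RefSeq places its first start nearer, 25325 bases after that end. At a mean under 10 CPM it fell outside the rule for named genes and was singled out after its values were seen. It had 0 UMIs in both controls and 21 and 16 UMIs in the eKO libraries, which is 14.4 and 9.68 CPM. Against a floor of 3 counts over the 2 controls (0.711 CPM), the pooled eKO level of 11.9 CPM was at least 16.7-fold higher (adjusted p = 0.00835). In endothelial barcodes *Gm3331* was at 0.60 and 0.840 against 58.5 and 48.8 CPM, in cells with *Col9a1* or *Col9a3* at 0.401 and 0.340 against 16.1 and 16.6 CPM, and in *Tcf21*-type cells at 0.791 and 0 against 0.763 and 1.497 CPM. The transcript was thus detected in the eKO libraries in the endothelial and cushion classes, while the *Tcf21*-type class had 5 UMIs in the controls and 11 in eKO.

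**Figure D3:**
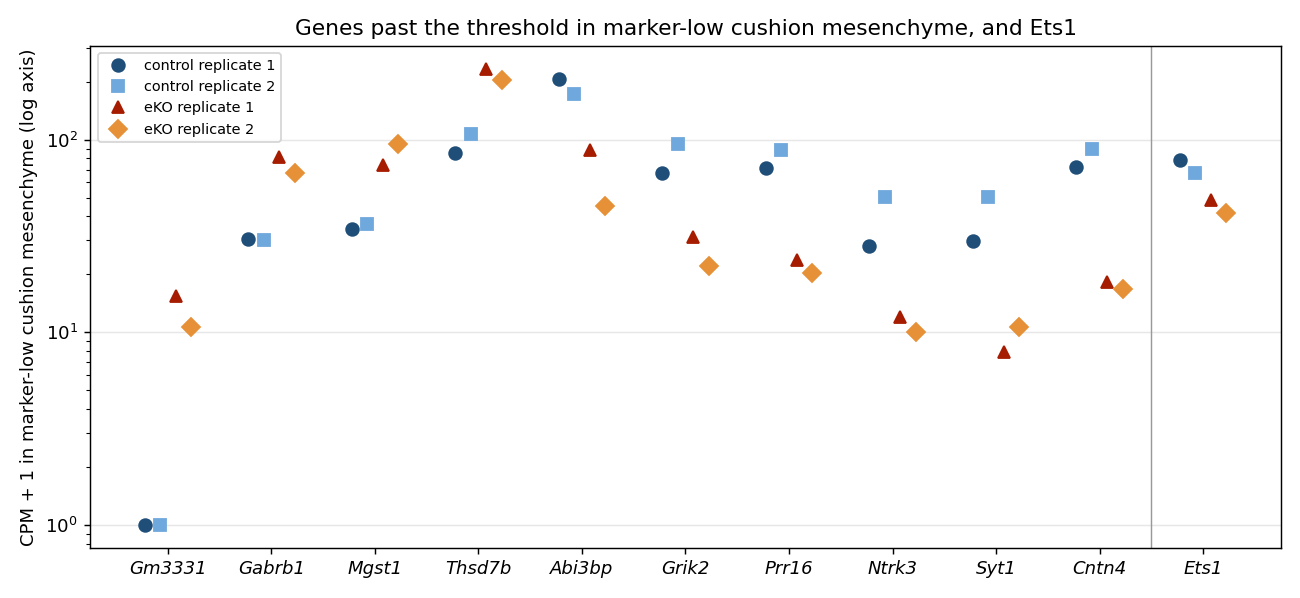
Level of the 10 genes past the threshold, and of *Ets1* to the right of the line, in marker-low cushion mesenchyme, as CPM plus 1 on a log axis with 1 point per library. The eKO points lie on 1 side of both control points for every gene shown, and *Gm3331* was at 0 in both controls.

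The calls were few, and their number moved with the handling of the data, from 1 to 201 over the alternatives tried. With DESeq2 11 genes were called, 8 of them among the 10. *Gm3331* had no adjusted p there, and *Ntrk3* was not called (log2 change -1.86, adjusted p = 0.115, DESeq2). Without control replicate 2 the log2 change of *Ntrk3* was -1.39. After the rule was applied to barcodes thinned to 5000 UMIs 5 of the 10 were still called, and *Thsd7b*, *Gabrb1*, *Grik2*, *Mgst1* and *Ntrk3* were not (adjusted p of 0.0873 to 0.528, edgeR). Of these *Thsd7b*, *Gabrb1* and *Grik2* shrank, to log2 changes of 0.77, 0.76 and -0.83, while *Mgst1* and *Ntrk3* stood at 1.14 and -1.60. *Prr16*, which was still called, grew to -2.99 from -1.84. Among cells with no UMI of the *Tcf21* gene sum 1 of the 9 that could be tested, *Abi3bp*, was still called, and *Cntn4*, *Prr16* and *Thsd7b* had adjusted p of 0.0516, 0.095 and 0.095 (edgeR) at log2 changes of -2.52, -1.58 and 1.23. With sex as a term 7 of the 10 were called, without *Gm3331*, *Syt1* and *Ntrk3* (adjusted p of 0.0632, 0.0695 and 0.0911, edgeR, with log2 changes of -1.90 for *Syt1* and -1.75 for *Ntrk3*). In that fit cells with *Xist* alone and with Y-linked UMIs alone were summed apart. Control replicate 2 and eKO replicate 1 each entered as a female and a male sum, without a library term, so the sums were not independent replicates. The set without cycling cells also left out the 3, 4, 7 and 42 cells under 2000 UMIs. In it 6 of the 9 that could be tested were called. *Gabrb1*, *Grik2* and *Mgst1* were not, at log2 changes of 1.37, -2.23 and 1.23 (adjusted p of 0.176, 0.0519 and 0.196, edgeR). With at least 6 UMIs of the cushion genes *Mgst1* was not called (log2 change 1.19, adjusted p = 0.0853, edgeR). Thinning each marker-low cell to 2000 UMIs left 1 call, *Prr16*, and all 9 of the 10 genes that could be tested kept their direction.

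Because Ets1 binds DNA at sites with a GGAA core, the promoters of the called genes were read from RefSeq (GRCm38.p6, 250 bases before to 50 after the start). The table held 7 of the 10, without *Abi3bp*, *Ntrk3* and *Prr16*. The hexamers CGGAAG and AGGAAG, which differ in their first letter and so cannot overlap at 1 position, were searched on both strands and found in 4 of the 7, *Cntn4*, *Gabrb1*, *Grik2* and *Mgst1*, and in 49.8% of all 27025 genes of the table. The share is thus near that of all genes. The promoters of *Cntn4*, the gene with the lowest adjusted p, and of *Grik2*, which also fell, are shown with the hexamer in capitals, 5′ to 3′ on the strand of the gene. *Cntn4* has 2 promoters in the table, of which the other holds no match, and the start of the one shown lies 441105 bases inside the GENCODE interval. The windows are chr6:106118515-106118814 (plus) and chr10:49788705-49789004 (minus).
Cntn4: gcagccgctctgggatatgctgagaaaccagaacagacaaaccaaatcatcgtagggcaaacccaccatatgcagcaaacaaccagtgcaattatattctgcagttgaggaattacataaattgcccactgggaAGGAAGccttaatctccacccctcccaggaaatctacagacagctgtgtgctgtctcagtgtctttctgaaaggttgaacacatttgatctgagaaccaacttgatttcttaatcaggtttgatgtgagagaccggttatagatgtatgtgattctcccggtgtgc
Grik2: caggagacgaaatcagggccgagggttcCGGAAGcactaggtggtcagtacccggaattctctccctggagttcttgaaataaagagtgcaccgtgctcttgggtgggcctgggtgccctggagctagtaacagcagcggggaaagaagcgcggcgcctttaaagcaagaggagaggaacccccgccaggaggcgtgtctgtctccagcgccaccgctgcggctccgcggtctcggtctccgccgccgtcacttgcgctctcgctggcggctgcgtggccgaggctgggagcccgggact
A match of 6 letters is a description of the sequence and not a binding site.

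None of the 358 list genes tested, spread over 28 lists of pathways, matrix and cell type markers, was past the threshold with edgeR, against 64 at an unadjusted p under 0.05 (20 higher, 44 lower), a p that 6.34% of all genes tested had. DESeq2 called 1 of them, *Myl7*, a myosin light chain of atrial muscle, and total count scaling called 3, *Myl7*, *Cxcl12* and *Nrg1*. The count moved with the setting: it was 24 without the filter on low counts, 19 with the replicate block, 40 with the crossed block, 10 with sex as a term and 10 to 34 with 1 library left out. Calls among all genes rose as well, from 10 to 114 without the filter, 76 with the replicate block and 201 with the crossed block. The alternatives passed that are counted below lay mostly in such settings or in those with 1 library left out. After thinning to 5000 UMIs only *Sfrp2* was called, and with doublets removed only *Myl7*. No list gene was called with at least 6 UMIs of the cushion genes, without cycling cells or at 2000 UMIs. The median log2 change of all genes tested was 0.01.

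No gene of the matrix lists passed the threshold, although *Tnc*, *Col13a1* and *Col15a1* did with the replicate block and without the filter on low counts. Of 8 cushion genes outside the rule none passed, and their median log2 change was 0.10. Among 14 proteoglycan and hyaluronan genes the median was -0.04. *Vcan* was at 936 and 1044 CPM in control and 1018 and 991 CPM in eKO libraries, a log2 change of 0.08 ± 0.19, and *Has2*, which makes hyaluronan, at 119 and 117 against 122 and 105 CPM. *Dcn*, which encodes decorin, was at 877 and 630 against 513 and 543 CPM, a log2 change of -0.45 ± 0.21 that did not pass (adjusted p = 0.779). The 8 fibrillar collagen genes had a median of -0.03, and *Col3a1* was at 1797 and 1934 against 2018 and 1482 CPM. Of 15 other collagen genes 4 were higher at an unadjusted p under 0.05 and none lower, against 2.64% and 3.7% of all genes, with a median of 0.21. *Col13a1*, a membrane collagen, was at 53.4 and 37.8 against 82.4 and 89.6 CPM (log2 change 0.98 ± 0.21, adjusted p = 0.109), and passed in 7 of 18 alternatives.

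The 22 matricellular and elastic fibre genes had a median of -0.17, with 4 lower and 0 higher at an unadjusted p under 0.05, against 3.7% and 2.64% of all genes. *Tnc*, which encodes tenascin-C, was at 191 and 241 CPM in control and 135 and 74.4 CPM in eKO libraries (log2 change -0.99 ± 0.23, adjusted p = 0.147), and passed in 6 of 18 alternatives. *Thbs1*, a matrix protein that binds TGF-beta, was at 246 and 231 against 166 and 151 CPM (adjusted p = 0.516). *Mgp*, an inhibitor of calcification, was at 1586 and 1617 against 2074 and 1917 CPM (adjusted p = 0.852). Of 23 genes of matrix turnover and crosslinking 2 were lower and 1 higher at p under 0.05, with a median of -0.13. *Adamts5*, a protease that cleaves versican, was at 38.5 and 59.2 against 27.5 and 24.2 CPM (adjusted p = 0.36).

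*Bmp4*, a BMP ligand, was at 50.4 and 57.4 CPM in control and 21.3 and 26.0 CPM in eKO libraries, a log2 change of -1.12 ± 0.23 (adjusted p = 0.0875), and it passed in 8 of 18 alternatives. The 22 BMP pathway genes had a median of -0.13, with 4 lower and 0 higher at p under 0.05, against the same 3.7% and 2.64%. *Id3*, a target of BMP signals, was at 1028, 936, 1000 and 1119 CPM. Of 20 TGF-beta pathway genes 17 had a negative log2 change, against 49.1% of all genes, 4 were lower at p under 0.05, against 3.7% of all genes, and the median was -0.16. *Tgfb2*, the ligand best known in cushions, was at 289 and 421 against 248 and 209 CPM (adjusted p = 0.576).

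*Nrg1*, the ErbB ligand, was at 33.6 and 37.4 CPM in control and 14.4 and 10.9 CPM in eKO libraries, a log2 change of -1.43 ± 0.27 (adjusted p = 0.064), and it passed in 11 of 18 alternatives. *Cxcl12*, a chemokine, was at 14.3 and 36.0 against 4.12 and 4.84 CPM (log2 change -2.41 ± 0.48, adjusted p = 0.0742) and passed in 9 of 18. Neither *Nrg1* nor *Cxcl12* passed with DESeq2, after thinning to 5000 or 2000 UMIs, with doublets removed or without cycling cells. In the list of 28 growth factor ligands and receptors 6 were lower and 2 higher at p under 0.05, against 3.7% and 2.64% of all genes, and the median was -0.09. *Ptn*, *Erbb4* and *Mdk* were the members of highest CPM. *Erbb4*, a receptor of neuregulins, was at 897 and 996 against 1274 and 1230 CPM (log2 change 0.47 ± 0.19, adjusted p = 0.719). *Egfr* was at 86.5 and 137 against 68.0 and 49.6 CPM (adjusted p = 0.258).

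Of 24 Wnt pathway genes 7 were lower and 1 higher at p under 0.05, against 3.7% and 2.64% of all genes, with a median of -0.08. *Sfrp2*, a secreted binder of Wnt ligands, was at 395 and 808 CPM in control and 284 and 244 CPM in eKO libraries, a log2 change of -1.12 ± 0.26 (adjusted p = 0.142) that passed in 8 of 18 alternatives. *Sfrp1*, its relative, was at 174 in both controls and at 253 and 232 CPM in eKO (log2 change 0.54 ± 0.17, adjusted p = 0.463). *Rspo3*, an amplifier of Wnt signals, was at 214, 215, 228 and 175 CPM. The 11 Notch pathway genes had a median of 0.08, with 2 higher and 1 lower at p under 0.05. *Hes1*, a Notch target, was at 253 and 212 against 343 and 290 CPM (adjusted p = 0.629).

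Of 33 transcription factors of the cushion 2 were higher and 3 lower at p under 0.05, against 2.64% and 3.7% of all genes, with a median of -0.06 and a range from -1.56 to 1.17. *Tbx20* was at 1362, 1480, 1746 and 1292 CPM and *Twist1* had a log2 change of 0.44 ± 0.22 (adjusted p = 0.813). *Tbx5*, a factor of atrial and atrioventricular development, was at 27.2 and 16.9 CPM in control and 38.5 and 55.7 CPM in eKO libraries (log2 change 1.17 ± 0.28, adjusted p = 0.151) and passed in 5 of 18 alternatives. Among 14 ETS factors the median was -0.01, and *Fli1*, the neighbour of *Ets1* on chromosome 9, was at 120, 98.9, 108 and 75.0 CPM. The 21 genes of S phase and 26 of G2 and mitosis had medians of 0.07 and -0.00, with 0 at p under 0.05. Of 23 immediate early and heat shock genes 2 were lower at p under 0.05, *Zfp36* and *Btg2*, against 3.7% of all genes, and the median was -0.09. The 17 imprinted growth genes had a median of -0.07. *Cdkn1c* among them was at 299 and 233 against 349 and 426 CPM (adjusted p = 0.496). The 6 genes that the study followed in endothelium and that could be tested here had a median of -0.12.

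**Figure D4:**
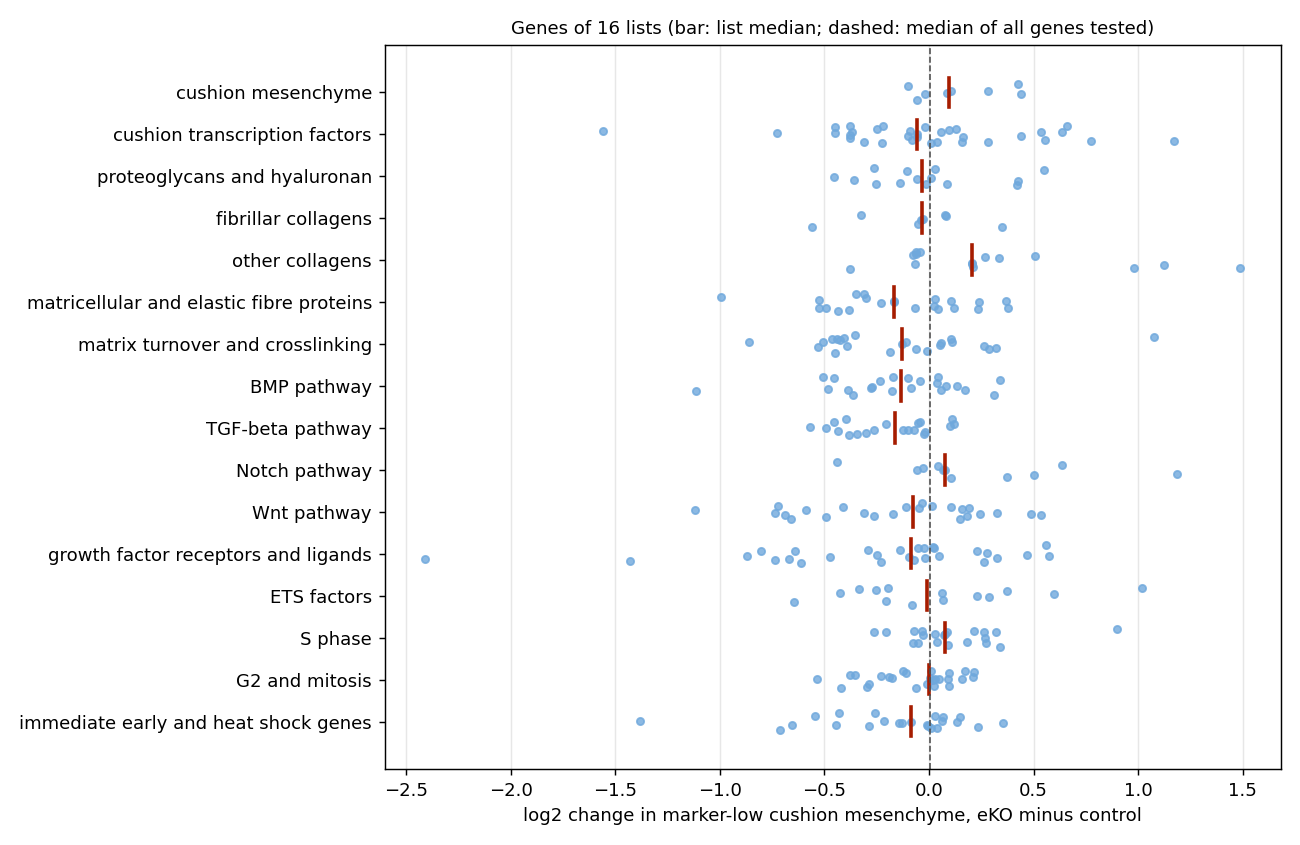
Log2 change in eKO against control of each tested gene in 16 lists, in marker-low cushion mesenchyme, 1 point per gene with the list median as a bar and the median of all genes (0.01) as a dashed line. List medians lie between -0.17 and 0.21, and *Cxcl12* (-2.41) is the point farthest to the left.

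No gene in the list of 5 sex-linked genes passed the threshold. Their median log2 change was -1.88, with a range from -1.95 to 1.44. Of them 4 were lower and 0 higher at an unadjusted p under 0.05 (edgeR), against 3.7% and 2.64% of all genes. No gene in the lists of other cell types passed the threshold. Medians were 0.03 for smooth muscle and pericyte, 0.10 for neural crest and 0.13 for endothelial genes. The 2 genes of *Tcf21*-type fibroblasts outside the rule had a median of 0.60. Of these, 1 was higher at an unadjusted p under 0.05, against 2.64% of all genes. Immune genes had a median of -1.45 over 5 genes, 3 of them lower at p under 0.05 against 3.7% of all genes, and their summed level in eKO replicate 1 was the lowest of the 4 libraries. Cardiomyocyte genes had a median of 0.41 over 9 genes, and *Myl7* among them was at 36.1 and 27.3 CPM in control and 59.0 and 117 CPM in eKO libraries (adjusted p = 0.0537, past the threshold in 12 of 18 alternatives). Erythroid genes had 0.31, epicardial genes 0.78 over 5 genes and chondrogenic genes 0.42 over 3 genes. At an unadjusted p under 0.05, 2 of 9 cardiomyocyte, 2 of 3 chondrogenic and 1 of 7 erythroid genes were higher. None of them was lower, against 2.64% higher and 3.7% lower among all genes. The part of free RNA from other cells in these values was not tested.

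The next question was whether the change in eKO differed between marker-low cushion mesenchyme and *Tcf21*-type fibroblasts, which descend mainly from the epicardium and not from Tie2-positive cells. In a model with terms for the library, the class and their condition, 15 of 12811 genes differed (0.117%, edgeR). *Thsd7b* rose by 1.25 in marker-low cells and had a log2 change of -0.07 ± 0.24 in *Tcf21*-type cells, where it was at 34.3 and 56.9 against 46.4 and 33.9 CPM. The difference was 1.33 ± 0.17 (adjusted p = 0.00555). *Cntn4* had -2.21 against -0.03, at 10.9 and 25.2 against 16.3 and 16.2 CPM in *Tcf21*-type cells, a difference of -2.20 ± 0.33 (adjusted p = 0.0129). *Epha3*, an ephrin receptor known in atrioventricular cushions, was at 196 and 206 against 344 and 305 CPM in marker-low cells and at 41.9 and 72.9 against 44.3 and 33.9 CPM in *Tcf21*-type cells, a difference of 1.18 ± 0.19 (adjusted p = 0.0255). *Dcn* had the opposite pattern, with -0.45 in marker-low and 0.25 in *Tcf21*-type cells, a difference of -0.69 ± 0.10 (adjusted p = 0.0129). *Tgfbi*, *Acta2* and *Tagln*, a matrix gene and 2 genes of contractile cells, differed by -0.72, -0.72 and -0.86, and *Enpp1*, *Mast4*, *Enah* and *Ptprk* by 1.67, 0.75, 0.67 and 0.65. The remaining differences, in *Hba-x*, *Hbb-y*, *Hbb-bh1* and *Lyz2*, were in genes of blood cells.

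The *Tcf21*-type class also held leukocytes, since *Lsp1* is expressed in them: 105, 54, 111 and 103 of its barcodes had at least 2 immune UMIs. Without these barcodes 21 genes differed, 14 of them shared with the 15. A fit without library as a term called 0 genes, with 440 at an unadjusted p under 0.05, and leaving out eKO replicate 1 or 2 gave 4 or 6 calls, of which 3 and 2 were among the 15. Leaving out control replicate 1 or 2 gave 110 or 98 calls, with 14 and 15 among them.

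Against cushion cells with *Col9a1* or *Col9a3*, 59 of 11766 genes differed in their change (0.501%). *Sfrp2* had the lowest adjusted p. It was at 373 and 592 against 96.0 and 70.3 CPM in cells with these collagens, a log2 change of -2.43 that passed there (adjusted p = 0.0058), and the difference was 1.35 ± 0.14 (adjusted p = 6.23e-06). *Tnc* behaved alike, at 158 and 229 against 49.2 and 28.5 CPM in the collagen class, with a difference of 1.24 ± 0.16 (adjusted p = 0.000151). *Penk*, the proenkephalin gene, and *Prdm6*, a repressor of smooth muscle, differed by 3.01 and 2.03. *Sulf1*, *Slc44a5*, *Dok6*, *Parm1*, *Ppfia2* and *Sh3bp5* differed by 1.34 to 1.58. For each of these genes the log2 change was more negative in the collagen class than in marker-low cells.

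In the list of 26 genes of G2 and mitosis 7 passed with a negative difference and 0 with a positive one, where 0.501% of all genes passed, and the median difference was -0.63, against -0.00 for all genes, while 0 of 21 S phase genes passed. *Cdc20*, *Cdca8*, *Cenpa*, *Prc1* and *Ube2c*, which act in mitosis, had differences of -1.20, -0.90, -0.89, -0.80 and -0.79. *Ube2c* was at 165 and 146 against 202 and 260 CPM in the collagen class and at 122 and 127 against 75.5 and 143 CPM in marker-low cells. *Angpt1*, *Itga6*, *Csmd1*, *Kcnb2* and *Fcer1g* completed the named genes, the last of them an immune gene. The fit without library as a term again called 0 genes, with 320 at an unadjusted p under 0.05. With 1 library left out, only part of the 59 genes were still called in each fit. The part in these differences of the *Col9a1* and *Col9a3* limit, which sorts deeper cells into the collagen class, was not tested.

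Against cells with *Rtn1* or *Car3* the change in eKO differed at 3 of 10881 genes (0.0276%). *Thsd7b* was at 92.8 and 116 against 113 and 89.8 CPM in these cells and the difference was 1.19 ± 0.16 (adjusted p = 0.00922). The other two were *Lyz2* and *Tyrobp*, both of leukocytes.

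**Figure D5:**
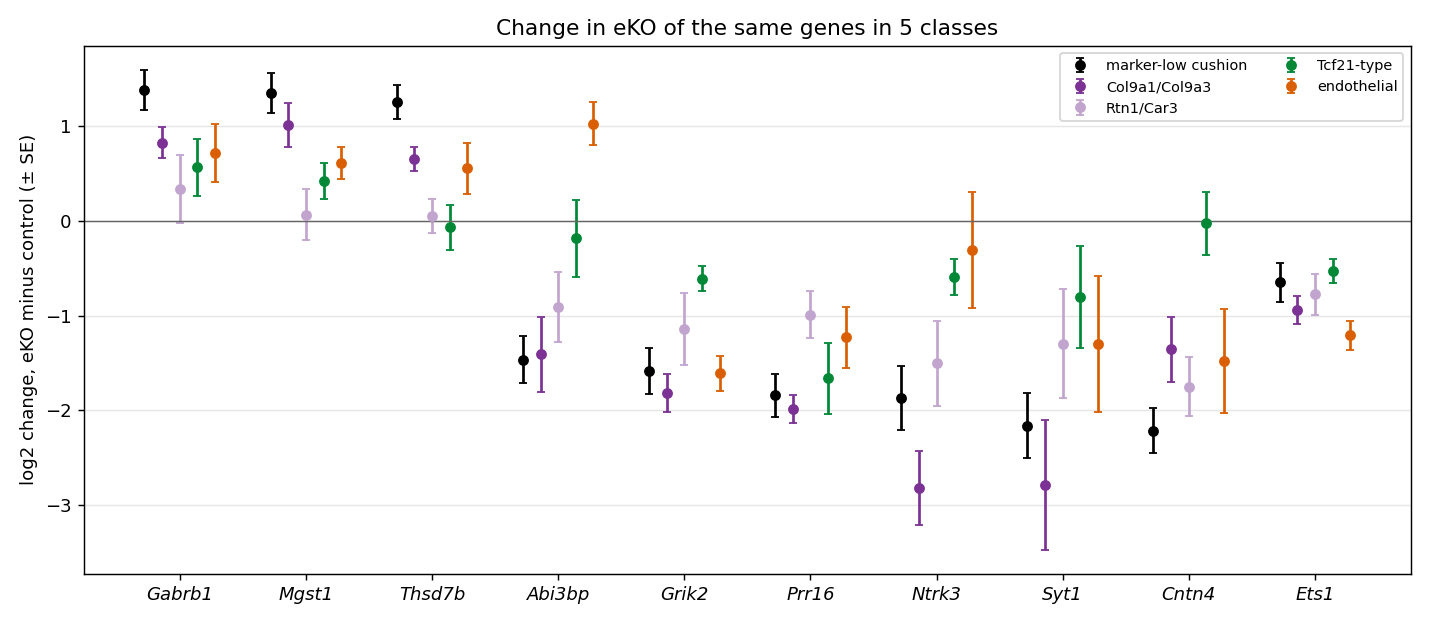
Log2 change in eKO against control with its SE, for 9 genes past the threshold in marker-low cushion mesenchyme and for *Ets1*, in 5 classes (colours). *Thsd7b* stands at 1.25 in marker-low cells and at -0.07 in *Tcf21*-type cells, and *Cntn4* at -2.21 and -0.03.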

How the data were processed

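Ventricles were pooled by 3 per library, dissociated with trypsin and sequenced with the 10x 3' v3.1 chemistry. The deposited matrices hold unnormalized UMI counts of each gene in each called barcode, which the authors made with Cell Ranger 7.1.0 against mm10. The members and gene lists were chosen with earlier results of these data known.

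UMIs were summed per library and class. Genes passing filterByExpr were tested with edgeR 4.0.16 (quasi-likelihood, TMM, R 4.3.3) over the 4 libraries, with Benjamini-Hochberg adjustment at 0.05. Fold changes are log2. Differences between classes came from sums of both classes, with library as a block and an interaction of class and condition. DESeq2 1.42.0 was an alternative. P-values of the comparison of groups measure the spread between libraries of pooled hearts. Those of differences between classes measure how the within-library difference of the classes varied between libraries. The fit with sex as a term used sums of parts of libraries, and its p-values do not measure the spread between libraries. The 22 rule genes were left out of counts. Shares were compared by exact permutation, with exact Clopper-Pearson intervals. Doublets were left in, and their removal was an alternative (0.8% per 1000 barcodes). Scripts were tested on simulated data. Positions are from GENCODE M21, which held 32235 of the 32285 gene IDs. The ratios behind leading genes used CPM + 1.

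Named genes were *Ets1*, the markers, up to 10 genes per direction past the threshold with groups that did not overlap and a mean of at least 10 CPM, the 3 genes of highest CPM or those past the threshold in a list, the 15 genes with the largest lowest ratio over other barcodes and 10 over each class (at least 50 CPM), and those among the 50 most variable in every library. List genes named beyond these were chosen after their values were seen. Comparisons of classes share libraries.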

Additional observations from a re-analysis of the deposited data

Results flagged for a closer look

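Differences between classes in the change under eKO that passed the test of the difference itself (edgeR, library as a term) are given here for up to 10 genes per direction with at least 10 CPM in both classes and groups that did not overlap, as log2 change in marker-low cells minus that in the other class. Against *Tcf21*-type cells they were 1.67 for *Enpp1*, 1.33 for *Thsd7b*, 1.18 for *Epha3*, 0.75 for *Mast4*, 0.67 for *Enah*, 0.65 for *Ptprk*, -5.27 for *Hba-x*, -4.64 for *Lyz2*, -4.28 for *Hbb-y*, -2.20 for *Cntn4*, -0.86 for *Tagln*, -0.72 for *Acta2*, -0.72 for *Tgfbi* and -0.69 for *Dcn*. Against cells with *Col9a1* or *Col9a3* they were 3.01 for *Penk*, 2.03 for *Prdm6*, 1.58 for *Slc44a5*, 1.58 for *Sulf1*, 1.43 for *Dok6*, 1.39 for *Parm1*, 1.38 for *Ppfia2*, 1.35 for *Sfrp2*, 1.34 for *Sh3bp5*, 1.24 for *Tnc*, -3.56 for *Fcer1g*, -1.45 for *Csmd1*, -1.23 for *Itga6*, -1.20 for *Cdc20*, -0.90 for *Cdca8*, -0.89 for *Cenpa*, -0.84 for *Angpt1*, -0.80 for *Prc1*, -0.79 for *Ube2c* and -0.79 for *Kcnb2*. Against cells with *Rtn1* or *Car3* the difference was 1.19 for *Thsd7b*. With 2 libraries per group no library could be tested as lying apart from its group.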

How the results depend on the processing

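The count of genes changed in eKO was 10. It was 20 with total count scaling, 114 without the filter on low counts, 32 with part of the study's cell filter (gene number and the shares of mitochondrial, hemoglobin and ribosomal UMIs), 42 to 159 with 1 library left out, and, in alternatives chosen after seeing the data, 26 without immune and hemoglobin-rich barcodes, 29 with sex as a term (7 of the 10 among them), 3 without any *Tcf21*-type UMI and 1 with cells thinned to 2000 UMIs. The replicate block gave 76 calls, and since same-numbered libraries deviated in opposite ways (correlation -0.22 over 7143 genes) the crossed pairing was also run and gave 201. The cause of these shifts was not tested. The sums behind the fit with sex as a term were parts of libraries and not independent replicates. All of the 10 that could be tested kept their direction in each alternative. *Ets1* ranged from -0.83 to -0.43 over 18 alternatives and passed in 1, the crossed block (-0.65, adjusted p = 0.0345, edgeR). The share of cushion barcodes differed by 5.98 percentage points between the groups, by -1.49 after thinning to 5000 UMIs, and by 0.117 to 11.9 with 1 library left out. The share of kept barcodes gave -2.15 to 0.185 with 1 left out, and -2.41 after thinning to 5000 UMIs, against -0.985. The share that cycled gave 2.51, -1.38 at 1000 UMIs, -6.41 with all UMIs, 1.16 with at least 4 cycle UMIs, and -2.83 to 7.85 with 1 left out. Differences from *Tcf21*-type cells (15) numbered 0 without library as a term, 116 without the filter and 4 to 110 with 1 library left out. Those from the *Col9a1* or *Col9a3* class (59) numbered 0, 104 and 46 to 109.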
